A study of Mus musculus with 6 samples.

Results

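A set of 10 receptor tyrosine kinases known from stromal and carcinoma cells was read in RNA from CD8 T cells sorted out of tumours. They were taken by symbol: Pdgfra and Pdgfrb (receptors of platelet-derived growth factors), Fgfr1 (of fibroblast growth factors), Egfr (of epidermal growth factor), Met (of hepatocyte growth factor), Igf1r (of insulin-like growth factors), Axl (of the bridging protein Gas6), Ddr1 and Ddr2 (of collagen) and Epha2 (of ephrins). All 10 symbols were found among the 40879 genes of the count table, and 9 of them had enough counts to be tested.

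The study took C57BL/6N mice bearing MC38-hPD-L1 tumours, sorted their tumour CD8 T cells at day 12 and sequenced poly-A RNA of the cells in 3 Biotin+ and 3 Biotin- libraries. MC38 is a mouse colon carcinoma line. Deep-red photocatalytic proximity labelling, in which light makes a catalyst attach biotin to nearby cells, had been applied first, and Biotin+ cells are described as neighbours of the tumour and Biotin- cells as distal to it. Both groups come from the same kind of tumour, strain and time point, and the labels tell them apart by the sort alone. The labels give neither the age of the mice nor whether a replicate is 1 animal or a pool. Totals were 16440614 to 19640693 counts per library in Biotin+ and 16423106 to 19035864 in Biotin-.

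Receptor tyrosine kinases are membrane proteins with an extracellular part that binds a ligand and an intracellular kinase. Ligand binding brings receptor chains together, the kinases phosphorylate each other, and adaptors such as Grb2 and Shc1 then pass the signal to the RAS and PI3K pathways. Fibroblasts and pericytes are known for PDGF receptors and Ddr2, epithelial and carcinoma cells for Egfr, Met, Ddr1 and Epha2, while Fgfr1, Igf1r and Axl are found in many cell types. Mature T cells signal mainly through receptors that borrow cytoplasmic kinases such as Lck, and the platelet-derived and epidermal growth factor receptors are not among their defining genes.

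All 10 receptors had lower levels in every Biotin+ library than in any Biotin- library. Together they reached 160.9, 133.3 and 236.7 CPM (counts relative to the size of the library, scaled by the TMM method) in Biotin+ replicates 1, 2 and 3, against 721.4, 519.2 and 963.5 CPM in Biotin- replicates 1, 2 and 3. The Biotin- mean was 4.15 times the Biotin+ mean, and the log2 ratio within same-numbered pairs was -2.16, -1.96 and -2.03. Of the 9 tested receptors, 7 fell in Biotin+ (edgeR's quasi-likelihood test, Benjamini-Hochberg adjusted p under 0.05) and 0 rose, with a median log2 fold change (Biotin+ minus Biotin-) of -2.05. Over all 13360 tested genes, 6.72% were lower and 1.53% higher by the same rule, and the median log2 fold change was 0.06. Every Biotin+ library lay below every Biotin- library for 15.9% of the tested genes.

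**Figure D1:**
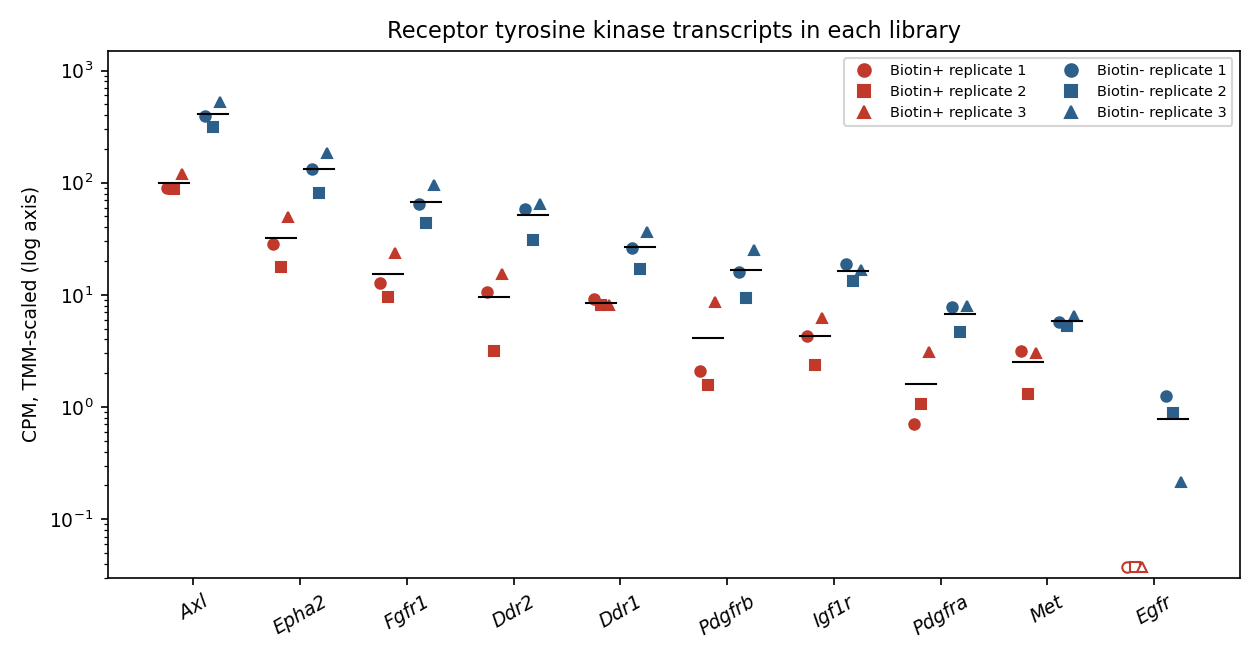
Level of each receptor in each library, in TMM-scaled CPM on a log axis, with Biotin+ in red left of Biotin- in blue, a symbol shape per replicate number and a black line at the group mean. The groups do not overlap for any of the 10 receptors, and Axl is the highest in all 6 libraries; open symbols at the base of the Egfr column are libraries with 0 counts.

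Markers of the labelled cell type were abundant: 15 of 15 CD8 T cell identity genes were tested, and Cd8a averaged 1226 ± 63.6 in the Biotin+ libraries, against 653 ± 189 in the Biotin- libraries (CPM, SD, n = 3). Relative to the summed CD8 identity level, the receptors summed to 2.24 ± 0.901% in the Biotin+ libraries, against 15.7 ± 6.94% in the Biotin- libraries (SD, n = 3). In bulk libraries, fewer cells of a type and less RNA per cell cannot be told apart. Biotin+ replicate 2 had the lowest TMM factor (0.815, against 0.980 to 1.13 in the other 5 libraries).

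Axl, which binds phosphatidylserine on dying cells through Gas6, and Epha2, a receptor of ephrins on neighbouring cells, made up most of the receptor transcripts. Axl reached 89.6, 88.4 and 119 CPM in Biotin+ replicates 1 to 3, against 391, 314 and 526 CPM in Biotin- replicates 1 to 3. The lowest Biotin- library was above the highest Biotin+ library by a wide margin, and in both groups replicate 3 was the highest. Axl fell in Biotin+ with a log2 fold change (± SE) of -2.05 ± 0.25 at an edgeR adjusted p of 0.00554. It kept its call in all 18 alternative fits, with adjusted p-values up to 0.0336.

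Epha2 reached 28.5, 17.7 and 49.5 CPM in Biotin+ replicates 1 to 3, against 133, 80.2 and 184 CPM in Biotin- replicates 1 to 3. Replicate 2 was the lowest and replicate 3 the highest library of each group, and the groups did not overlap. Epha2 fell with a log2 fold change (± SE) of -2.05 ± 0.39 at an edgeR adjusted p of 0.0129. The call was lost without Biotin+ replicate 2 (edgeR adjusted p = 0.0552) and without Biotin- replicate 3 (edgeR adjusted p = 0.0574).

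The promoters of Axl and Epha2 are shown because these receptors carried most of the receptor RNA. The sequences are RefSeq's, on build GRCm38.p6, run 5′ to 3′ from 250 bases before the gene start to 50 after it, and capitals mark motif matches. Both strands were searched, so a match may read as its reverse complement. The motif GGAATG is known from TEAD factors, effectors of the Hippo pathway. The motif GGGCGG is known from the general factor SP1. The motif TGANTCA is known from AP-1, the dimer of Fos and Jun proteins. The motif TATAAA is the TATA box, which places the start of transcription. No match overlapped one of another motif in the sequences shown.
Axl promoter, chr7:25788684-25788983, minus strand: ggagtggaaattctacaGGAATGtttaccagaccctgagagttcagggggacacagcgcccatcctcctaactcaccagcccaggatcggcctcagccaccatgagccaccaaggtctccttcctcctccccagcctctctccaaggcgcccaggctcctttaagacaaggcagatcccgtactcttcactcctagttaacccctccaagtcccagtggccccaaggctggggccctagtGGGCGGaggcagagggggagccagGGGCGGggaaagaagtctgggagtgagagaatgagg
Epha2 promoter, chr4:141300971-141301270, plus strand: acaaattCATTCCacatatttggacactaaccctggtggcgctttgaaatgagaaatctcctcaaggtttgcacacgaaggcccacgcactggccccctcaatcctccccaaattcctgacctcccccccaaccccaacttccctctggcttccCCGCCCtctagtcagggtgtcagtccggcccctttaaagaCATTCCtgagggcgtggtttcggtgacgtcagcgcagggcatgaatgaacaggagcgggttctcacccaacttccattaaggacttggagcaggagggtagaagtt
The Axl promoter held 1 GGAATG and 2 GGGCGG matches, and the Epha2 promoter held 2 GGAATG matches and 1 GGGCGG match. Promoters were found for 8 of the 10 receptors, 11 in all since Ddr1 has 4. Counted per promoter, GGAATG occurred in 2 of 11 (those of Axl and Epha2), against 14.7% of 32851 mouse promoters of 300 bases. GGGCGG occurred in 8 of 11 (35.7% of all), TGANTCA in 2 of 11 (7.81%) and TATAAA in 1 of 11 (13.6%). These matches describe the letters of the windows and nothing about the binding of a factor.

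Compared per length, as CPM per kilobase of exon (RPKM, with exon lengths of GENCODE M21), Axl averaged 19.7 ± 3.48 RPKM in the Biotin+ libraries, against 81.5 ± 21.3 RPKM in the Biotin- libraries (SD, n = 3). Epha2 averaged 6.82 ± 3.46 RPKM in the Biotin+ libraries, against 28.3 ± 11.1 RPKM in the Biotin- libraries (SD, n = 3). Together they made up 80.3 to 85.1% of the summed RPKM of the 10 receptors in Biotin+ and 81.6 to 84.1% in Biotin-. The order of levels in Biotin+ was Axl, Epha2, Ddr1, Fgfr1, Ddr2, Pdgfrb, Met, Igf1r, Pdgfra and Egfr. Neighbours in that order kept it in 3 of 3 libraries except Ddr1 and Fgfr1, and Pdgfrb and Met, which kept it in 2 of 3. In Biotin- the order was Axl, Epha2, Fgfr1, Ddr1, Ddr2, Pdgfrb, Igf1r, Met, Pdgfra and Egfr, and the pairs Ddr1 and Ddr2, and Met and Pdgfra, kept it in 2 of 3 libraries. The mean RPKM by which Biotin- exceeded Biotin+ was 61.2% Axl, 21.3% Epha2, 5.28% Fgfr1, 4.43% Ddr2, 3.74% Ddr1 and 2.29% Pdgfrb.

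**Figure D2:**
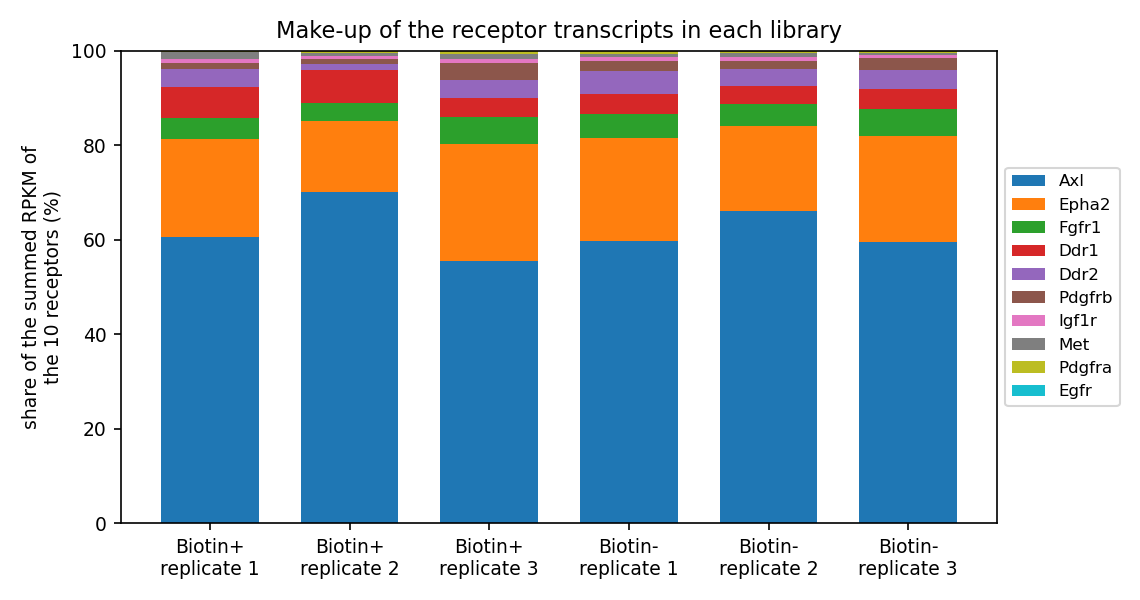
Make-up of the receptor transcripts in each library, as the share (%) of each receptor in the summed RPKM of the 10, with the 3 Biotin+ libraries left of the 3 Biotin- libraries. Axl takes 55.5 to 70.0% in Biotin+ and 59.6 to 66.0% in Biotin-, ranges that overlap, while the summed CPM differs 4.15 times.

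The receptors of soluble mesenchymal growth factors come next. Pdgfra, which marks fibroblasts and mesenchymal progenitors, reached 0.701, 1.06 and 3.09 CPM in Biotin+ replicates 1 to 3, against 7.78, 4.66 and 7.95 CPM in Biotin- replicates 1 to 3. Biotin+ replicate 3 stood above the other Biotin+ libraries but under all Biotin- libraries. Pdgfra fell with a log2 fold change (± SE) of -2.07 ± 0.56 at an edgeR adjusted p of 0.0472. Of the 6 fits without a single library it passed in 1, the fit without Biotin+ replicate 3 (edgeR adjusted p = 0.00513), and the adjusted p was 0.0597 to 0.168 in the others. With library size alone as the scaling it missed the threshold (edgeR adjusted p = 0.0576).

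Pdgfrb, the PDGF receptor of pericytes and fibroblasts, reached 2.10, 1.56 and 8.72 CPM in Biotin+ replicates 1 to 3, against 15.9, 9.32 and 25.2 CPM in Biotin- replicates 1 to 3. Biotin+ replicate 3 came close to the lowest Biotin- library. Its log2 fold change (± SE) of -2.03 ± 0.61 missed the threshold, with an edgeR adjusted p of 0.0711. With the replicate number as a block it passed, at -2.29 ± 0.32 (SE, edgeR adjusted p = 8.52e-05), and it also passed without Biotin+ replicate 3 (log2 fold change -3.18, edgeR adjusted p = 0.00278). It passed in 7 of the 18 alternative fits. The rest of these were DESeq2's Wald test, limma-voom, no filter, CD8 identity scaling and the fit without the pair of replicate 3. Within same-numbered pairs the log2 ratio was -2.91, -2.58 and -1.53. Pdgfrb exceeded Pdgfra per length 2.69 to 5.49 times in the Biotin+ libraries and 3.66 to 5.81 times in the Biotin- libraries.

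Fgfr1, the main fibroblast growth factor receptor of mesenchymal cells, reached 12.8, 9.50 and 23.6 CPM in Biotin+ replicates 1 to 3, against 64.3, 43.3 and 96.1 CPM in Biotin- replicates 1 to 3. Replicate 2 was the lowest and replicate 3 the highest library in both groups. Fgfr1 fell with a log2 fold change (± SE) of -2.15 ± 0.38 at an edgeR adjusted p of 0.00941, and no single left-out library ended the call, although leaving out the pair of replicate 1 did (edgeR adjusted p = 0.0509).

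Igf1r, the receptor through which insulin-like growth factors promote growth and survival, reached 4.26, 2.38 and 6.24 CPM in Biotin+ replicates 1 to 3, against 19.0, 13.3 and 16.5 CPM in Biotin- replicates 1 to 3. It differed from most of the receptors in that replicate 1, not replicate 3, was its highest Biotin- library. Igf1r fell with a log2 fold change (± SE) of -1.92 ± 0.37 at an edgeR adjusted p of 0.0138, a call lost without Biotin- replicate 3 (edgeR adjusted p = 0.0569).

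The collagen receptors differ from the rest in binding a matrix protein and in responding slowly. Ddr2, which mesenchymal cells use to sense fibrillar collagen, reached 10.6, 3.19 and 15.2 CPM in Biotin+ replicates 1 to 3, against 57.9, 31.0 and 64.4 CPM in Biotin- replicates 1 to 3. Biotin+ replicate 2 was far below the other Biotin+ libraries, and the groups did not overlap. Ddr2 had the most negative log2 fold change of the 9 tested receptors, -2.40 ± 0.48 (SE, edgeR adjusted p = 0.0160), and lost the call without Biotin+ replicate 1 (edgeR adjusted p = 0.0561) or Biotin- replicate 3 (edgeR adjusted p = 0.0699).

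Ddr1, the collagen receptor of epithelia, reached 9.11, 8.19 and 8.11 CPM in Biotin+ replicates 1 to 3, against 26.1, 17.1 and 36.4 CPM in Biotin- replicates 1 to 3. Its Biotin+ libraries were nearly level (SD 0.557 CPM), while its Biotin- libraries spread more widely (SD 9.67 CPM, n = 3 each). Ddr1 fell with a log2 fold change (± SE) of -1.65 ± 0.30 at an edgeR adjusted p of 0.0111, and the call was lost without Biotin+ replicate 2 (edgeR adjusted p = 0.0538) or Biotin- replicate 3 (edgeR adjusted p = 0.0598), and without the pair of replicate 3 (edgeR adjusted p = 0.0752). Per length, Ddr1 was 1.67, 4.98 and 1.04 times Ddr2 in Biotin+ replicates 1 to 3, against 0.875, 1.07 and 1.10 times in Biotin- replicates 1 to 3. Without a stated strand setting, reads of both genes cannot be told apart from those of overlapping genes on the other strand, which cover 4.52% of the exon bases of Ddr1 and 0.972% of those of Ddr2 in GENCODE M21. Overlapping genes, mostly on the other strand, also cover 6.50% of Pdgfra and 1.66% of Fgfr1.

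Met and Egfr are known for epithelial growth and for carcinoma. Met reached 3.18, 1.31 and 3.03 CPM in Biotin+ replicates 1 to 3, against 5.69, 5.32 and 6.49 CPM in Biotin- replicates 1 to 3. The groups did not overlap, and Met had the smallest change among the 9 tested receptors. Its log2 fold change (± SE) of -1.21 ± 0.43 missed the threshold, with an edgeR adjusted p of 0.116. It passed with the replicate block (-1.29 ± 0.39 SE, edgeR adjusted p = 0.0302) and with libraries scaled to CD8 identity genes (edgeR adjusted p = 0.0285), and in no other alternative, where adjusted p-values ran up to 0.326.

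Egfr had 0 counts in all 3 Biotin+ libraries, against 26, 16 and 4 counts (1.26, 0.877 and 0.216 CPM) in Biotin- replicates 1 to 3. Its order among the Biotin- libraries ran against that of the other receptors, with replicate 3 the lowest. The 46 Biotin- counts pool to 0.803 CPM (95% exact Poisson interval 0.588 to 1.07, counting error only), and 0 counts allow up to 3 over the Biotin+ group, or 0.0588 CPM. The pooled Biotin- level was 13.7 times that limit, and 10.004 times at the lower end of its interval, while Biotin- replicate 3 alone lay nearer to it. It was too low for the filter on counts used here. It entered 7 of the 18 alternative fits, through its Biotin- counts alone, so its direction in them was fixed in advance. It passed without a filter (edgeR adjusted p = 0.00474), in DESeq2's Wald test (DESeq2 adjusted p = 0.00508), without Biotin+ replicate 3 (edgeR adjusted p = 0.0471) and without the pair of replicate 3 (edgeR adjusted p = 0.0359). It missed the threshold without Biotin+ replicate 1 (edgeR adjusted p = 0.0714), Biotin+ replicate 2 (edgeR adjusted p = 0.101) or Biotin- replicate 3 (edgeR adjusted p = 0.0764).

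**Figure D3:**
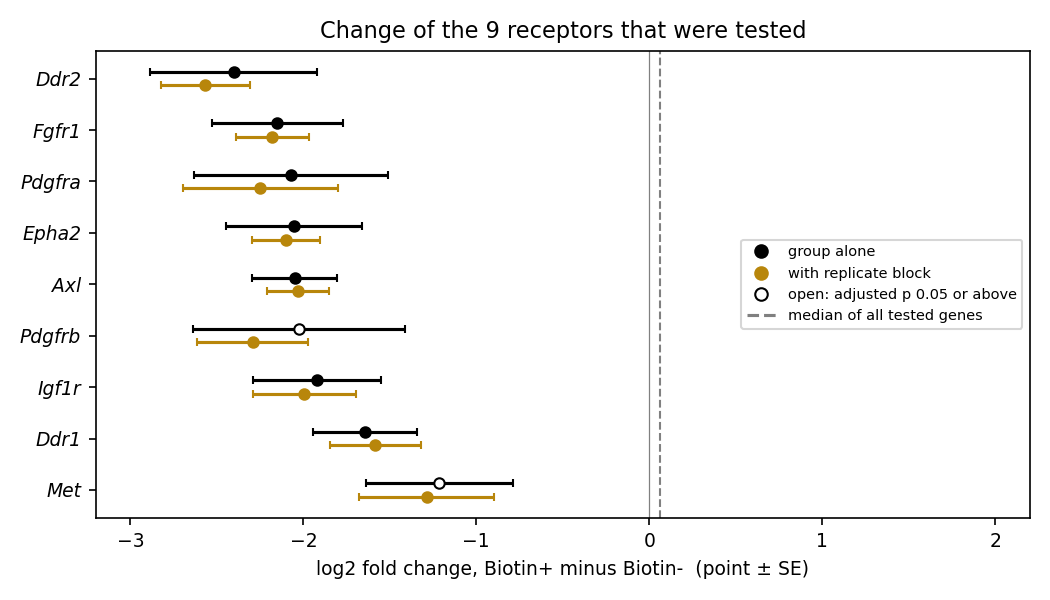
Log2 fold change (Biotin+ minus Biotin-, point ± SE) of the 9 tested receptors, with the group alone in black and with the replicate number as a block in ochre; open points did not pass. All 9 lie between -2.40 and -1.21 with the group alone. Of the fits drawn here, Pdgfrb and Met pass only with the block.

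With the replicate block, 9 of 9 tested receptors were lower, against 12.0% of all tested genes lower and 5.60% higher. Across the 6 fits without a single library, 2 to 8 of the 9 receptors passed, with 8 without Biotin+ replicate 3 (7.58% of all genes lower). The count was 2 (Axl and Fgfr1) without Biotin- replicate 3, where 1.75% of all genes were lower, 4 without Biotin+ replicate 2, where 2.63% were, and 2 (Axl and Ddr1) without the pair of replicate 1, where 2.88% were. All 9 receptors had a negative log2 fold change in each of the 18 alternative fits, including the scaling to CD8 identity genes, which moved the median of all genes by -0.72 and gave 9 lower receptors (24.6% of all genes lower).

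The receptors also varied together inside the groups. Among the 9 receptors with counts in Biotin+, 7 were highest in replicate 3 and 7 lowest in replicate 2. Among the 10 in Biotin-, 8 were highest in replicate 3 and 9 lowest in replicate 2. The share of all tested genes with this order was not counted, so the order is not shown to be particular to the receptors. Over the 6 libraries, which differ by group and share replicate numbers, the log2 CPM of each tested receptor correlated with the mean of the other tested receptors at Pearson's r of 0.918 (Ddr1) to 0.997 (Fgfr1 and Epha2), given as a description. The 5 genes outside the set closest to the receptors' mean profile over these 6 libraries, out of 9777 candidates with a mean of at least 5 CPM, were Ptprn, Angptl2, Aebp1, Mrc2 and Htra1, with r of 0.998 to 0.999. The choice by likeness fixes that they separate the groups as the receptors do, with log2 fold changes from -2.34 (Htra1) to -2.03 (Angptl2), given as a description.

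The other receptor tyrosine kinases of the mouse moved in both directions. Of 48, 28 were tested, 5 were lower, 2 were higher and 21 missed the threshold, and the median log2 fold change was -0.61. With the replicate block 9 were lower and 3 higher. Of the 5 kinases of blood cells and macrophages, 0 passed in edgeR with the group alone or with the block, in DESeq2 or in limma-voom, 0 had an unadjusted p under 0.05, and the groups overlapped for each. Csf1r, the macrophage colony-stimulating factor receptor, reached 56.3, 51.1 and 19.6 CPM in Biotin+ replicates 1 to 3, against 124, 35.2 and 47.1 CPM in Biotin- replicates 1 to 3 (log2 fold change -0.70 ± 0.49 SE, edgeR adjusted p = 0.442). Biotin+ replicate 3, the highest Biotin+ library for 7 of the 9 receptors with counts there, was the lowest of all 6 for Csf1r. Mertk, the relative of Axl on macrophages, had a log2 fold change (± SE) of -1.31 ± 0.64 at an edgeR adjusted p of 0.257.

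Of the 5 kinases of endothelium, 2 were tested and 0 passed in edgeR with the group alone or with the block, in DESeq2 or in limma-voom, and 0 had an unadjusted p under 0.05. Their counts were low and their log2 fold changes negative (Flt1 -1.14 ± 1.15 and Kdr -1.65 ± 1.01 SE), and the groups did not overlap for Kdr. With 8, 0 and 2 counts in Biotin+ replicates 1 to 3, Kdr entered the test through its Biotin- counts alone. Its direction was thus fixed in advance. Flt4, Tie1 and Tek had 0 counts in Biotin+ and averaged at most 0.290 CPM in Biotin-. Of 8 with known roles in epithelium, 6 were tested and 2 were lower: Ephb2, a receptor of ephrin B proteins (log2 fold change -2.22 ± 0.37 SE, edgeR adjusted p = 0.00815), and Erbb2, the partner of Egfr in dimers (-1.87 ± 0.49 SE, edgeR adjusted p = 0.0414). Erbb2 reached 3.18, 1.56 and 5.87 CPM in Biotin+ replicates 1 to 3, against 11.7, 8.23 and 18.9 CPM in Biotin- replicates 1 to 3, with replicate 2 lowest and replicate 3 highest in both groups, as for 5 of the 10 receptors (Pdgfrb, Fgfr1, Axl, Ddr2 and Epha2). Its call was lost with library size alone as the scaling, and without Biotin+ replicate 1 or 2 or Biotin- replicate 1 or 3. Among the other 30 kinases, 15 were tested. Ephb4 (log2 fold change -2.41 ± 0.41 SE), the WNT co-receptor Ptk7 (-1.95 ± 0.39 SE) and the WNT5A receptor Ror2 (-2.28 ± 0.60 SE), the last of which was named after its values were seen, were lower. Lmtk3 (1.43 ± 0.35 SE) and Styk1 (1.50 ± 0.37 SE) were higher, and neither passed under the scaling to CD8 identity genes, with library size alone, or without Biotin+ replicate 2 or Biotin- replicate 1 or 3. Ror2 lost its call in limma-voom and without Biotin+ replicate 1 or 2 or Biotin- replicate 1 or 3, Ptk7 without Biotin- replicate 3, and Lmtk3 also without Biotin+ replicate 3 or Biotin- replicate 2.

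Ligands of the 10 receptors are encoded by genes of many cell types. Of 32 listed, 21 were tested, 11 were lower, 0 were higher and 10 missed the threshold, and the median log2 fold change was -2.22. With the replicate block 15 were lower and 0 higher. Both counts of lower genes include Efna4 (0, 1 and 4 counts in Biotin+ replicates 1 to 3), named after its values were seen. Efna4 entered the test through its Biotin- counts alone, so its direction was fixed in advance. The most abundant ligand genes in Biotin- were Col3a1 and Col1a1, of collagens that Ddr1 and Ddr2 bind. Col3a1 averaged 64.5 CPM in the Biotin+ libraries, against 393 CPM in the Biotin- libraries (log2 fold change -2.61 ± 0.38 SE, edgeR adjusted p = 0.00643). Col1a1 averaged 25.5 CPM in the Biotin+ libraries, against 191 CPM in the Biotin- libraries (-2.91 ± 0.32 SE, edgeR adjusted p = 0.00531). The growth factor ligands that follow were named after their values were seen. The PDGF genes parted: Pdgfa (-2.02 ± 0.34 SE, edgeR adjusted p = 0.00837) and Pdgfc (-2.25 ± 0.59 SE, edgeR adjusted p = 0.0433) fell, whereas Pdgfb averaged 30.7 CPM in the Biotin+ libraries, against 29.2 CPM in the Biotin- libraries (0.07 ± 0.22 SE, edgeR adjusted p = 0.888, with a sign that changed under 3 scalings). Efna1, an ephrin that binds Epha2, fell with -3.06 ± 0.50 (SE, edgeR adjusted p = 0.00815), and Hbegf, a ligand of Egfr, with -1.63 ± 0.41 (SE, edgeR adjusted p = 0.0345). Gas6, the ligand of Axl, had a value of -2.36 ± 0.73 (SE, edgeR adjusted p = 0.0810) and passed with the block (edgeR adjusted p = 5.61e-05). Calls of Pdgfc were lost with library size alone, in limma-voom and without Biotin+ replicate 1 or 2 or Biotin- replicate 1 or 3, and of Hbegf without Biotin+ replicate 2 or Biotin- replicate 1 or 3.

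Co-receptors, binding proteins and attenuators went both ways. Of 22, 19 were tested, 5 were lower, 2 were higher and 12 missed the threshold, and the median log2 fold change was -0.98, and with the block 13 were lower and 2 higher. The 13 include Igfbp5 (3, 0 and 0 counts in Biotin+ replicates 1 to 3), named after its values were seen. Igfbp5 entered the test through its Biotin- counts alone, so its direction was fixed in advance. The insulin-like growth factor binding proteins Igfbp4 (-2.03 ± 0.28 SE, edgeR adjusted p = 0.00603) and Igfbp6 (-2.24 ± 0.37 SE, edgeR adjusted p = 0.00815) and the heparan sulfate proteoglycan Sdc2 (-2.02 ± 0.32 SE, edgeR adjusted p = 0.00770) fell. The other lower genes, named after their values were seen, were Lrig1 and Errfi1, inhibitors of Egfr family signalling (-1.14 ± 0.29 and -0.78 ± 0.20 SE). Both kept the call without Biotin+ replicate 1 and lost it without each of the other 5 libraries, and Lrig1 lost it with library size alone too. Spint2, an inhibitor of the proteases that activate hepatocyte growth factor, and St14, such a protease, were higher (0.95 ± 0.20 and 1.41 ± 0.30 SE), St14 being named after its values were seen. St14 no longer passed with Biotin+ replicate 2 left out, or Biotin- replicate 1 or 3, Spint2 with library size alone or with any of the Biotin- libraries left out, and both lost it under the scaling to CD8 identity genes.

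The adaptors and early transducers, which most cells including T cells use, were near the background. Of 26 tested, 2 were lower (7.69%, against 6.72% of all genes), 0 were higher and 24 missed the threshold, and the median log2 fold change was -0.05. With the block 3 were lower. The lower genes were the SRC family kinases Src (-1.10 ± 0.27 SE, edgeR adjusted p = 0.0321) and Yes1 (-2.49 ± 0.58 SE, edgeR adjusted p = 0.0279), of which Src no longer passed with Biotin+ replicate 1 or 2 left out, or Biotin- replicate 1 or 3, and Yes1 with Biotin+ replicate 1 left out, or Biotin- replicate 2 or 3.

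Marker lists of cell types that use these receptors moved unequally in the same libraries, and their part in the result was not tested. Of 12 fibroblast markers, 11 were tested and 9 were lower, with a median log2 fold change of -2.27. The 9 include Mfap5 (3, 2 and 0 counts in Biotin+ replicates 1 to 3), named after its values were seen. Mfap5 entered the test through its Biotin- counts alone, so its direction was fixed in advance. Fbln2, a matrix glycoprotein, had a log2 fold change of -2.30 ± 0.34, Dcn, the proteoglycan decorin, of -2.48 ± 0.20, and Col6a1, a collagen VI chain, of -2.27 ± 0.31 (SE). The summed list reached 210.1, 152.1 and 272.9 CPM in Biotin+ replicates 1 to 3, against 1134, 738.2 and 1130 CPM in Biotin- replicates 1 to 3. The summed receptors were 76.6, 87.6 and 86.8% of that level in Biotin+ replicates 1 to 3, against 63.6, 70.3 and 85.2% in Biotin- replicates 1 to 3, ranges that overlap. Of the defining fibroblast genes, Fap had 0 counts in Biotin+ and a mean of 0.256 CPM in Biotin-.

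Of 11 pericyte and smooth muscle markers, 5 were tested and 1 was lower, the proteoglycan Cspg4 (-2.08 ± 0.32 SE, edgeR adjusted p = 0.00691). DESeq2 called 3 lower, and edgeR with the block called 2, Cspg4 and Acta2. Acta2 averaged 0.298 CPM in the Biotin+ libraries, against 2.98 CPM in the Biotin- libraries, and the groups did not overlap. Its log2 fold change of -3.30 missed the threshold with the group alone (edgeR adjusted p = 0.0726) and passed with the block (edgeR adjusted p = 0.00481). With 5, 10 and 0 counts in Biotin+ replicates 1 to 3, Acta2 entered these fits through its Biotin- counts alone. Its direction in them was thus fixed in advance. The summed list was 25.1 to 35.9 CPM in Biotin+ and 60.9 to 105.7 CPM in Biotin-, while Rgs5, Des, Myh11 and Tagln averaged under 1 CPM in both groups. Of 12 endothelial markers, 3 were tested and 0 passed in edgeR, DESeq2 or limma-voom (unadjusted edgeR p under 0.05 in 1 lower and 1 higher), with a summed level of 13.3 to 23.3 CPM in Biotin+ and 25.4 to 35.1 CPM in Biotin-. With the block 1 endothelial marker was lower.

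Of 14 epithelial and carcinoma markers, 3 were tested, 0 passed in edgeR with the group alone, in DESeq2 or in limma-voom, 0 had an unadjusted p under 0.05, and 1 was higher with the block. Krt7, Krt20, Cldn3, Elf3 and Cdx2 had 0 counts in all 6 libraries, and Krt8, Krt18 and Krt19 averaged under 1 CPM in both groups. The summed list was 27.1 to 138.3 CPM in Biotin+ and 17.1 to 58.4 CPM in Biotin-, with overlapping groups, and was mostly Cdh1 (56.3 CPM in Biotin+ and 27.2 CPM in Biotin-, log2 fold change 1.05 ± 0.83 SE, edgeR adjusted p = 0.506). Of 3 skin keratinocyte markers, Krt14 was tested and lower (12.6 CPM in Biotin+ and 63.6 CPM in Biotin-, -2.34 ± 0.41 SE, edgeR adjusted p = 0.00930), whereas its partner Krt5 averaged 0.0625 CPM in the Biotin+ libraries, against 0 CPM in the Biotin- libraries, and Krt15 had 0 counts throughout. The call of Krt14 was lost without Biotin+ replicate 2.

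The 12 macrophage and monocyte markers all had negative log2 fold changes (median -0.98), and 0 passed in edgeR, DESeq2 or limma-voom (2 lower at an unadjusted edgeR p under 0.05). With the block 3 were lower, Mrc1 among them (edgeR adjusted p = 4.58e-05 with the block, 0.237 without). Their summed level was 1263, 1323 and 413 CPM in Biotin+ replicates 1 to 3, against 3598, 979 and 1185 CPM in Biotin- replicates 1 to 3, so the groups overlapped and Biotin- replicate 1 stood apart. The summed receptors were 12.7, 10.1 and 57.4% of the macrophage list in Biotin+ replicates 1 to 3, against 20.1, 53.0 and 81.3% in Biotin- replicates 1 to 3. Biotin+ replicate 3 thus held the highest receptor level of its group and the lowest macrophage level.

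**Figure D4:**
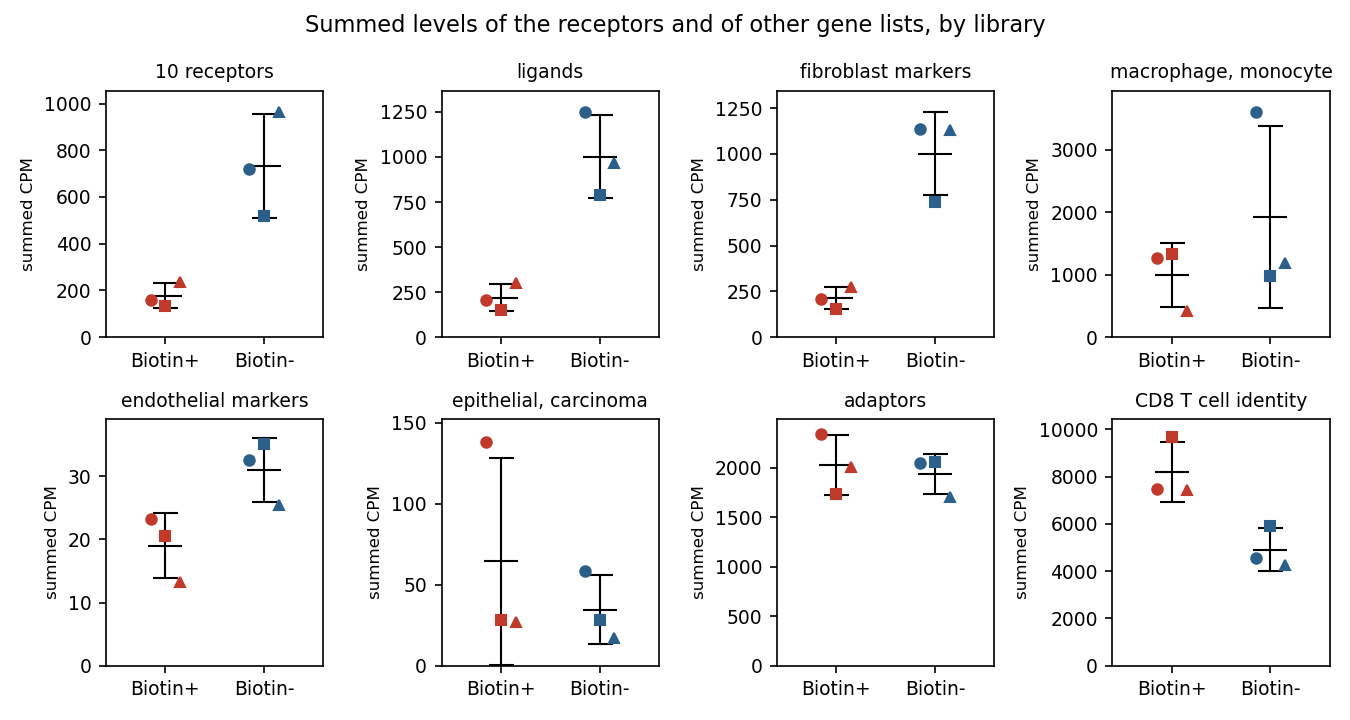
Summed CPM of the 10 receptors and of 7 other gene lists in each library, Biotin+ in red left of Biotin- in blue, with a symbol shape per replicate number and bars for the mean ± SD (n = 3). The receptors, their ligands and the fibroblast markers separate the groups 4.15 to 4.73 times, and the endothelial markers 1.63 times. The macrophage, epithelial and adaptor lists overlap, and CD8 identity genes are higher in Biotin+.

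The other cell type lists held few tested genes. Among dendritic cell markers 1 of 9 tested was lower (the actin-bundling Fscn1, -1.02 ± 0.25 SE) and the median was 0.08, while the chemokine gene Ccl22 had 1.77 ± 0.78 (SE, edgeR adjusted p = 0.212) and was higher with the block (edgeR adjusted p = 0.000524). With the block 1 dendritic cell marker was higher and 2 were lower. Of 2 tested natural killer cell markers, 1 was lower (Klra4, with a mean of 4.36 CPM in the Biotin+ libraries, against 17.5 CPM in the Biotin- libraries). The other, Klrb1c, had 1.39 ± 0.55 (SE, edgeR adjusted p = 0.159) and was higher with the block (edgeR adjusted p = 0.000758). Of 2 tested Schwann cell markers, 1 was lower (Ngfr, -1.88 ± 0.43 SE, with Sox10 at 0 counts). The call of Fscn1 was lost without Biotin+ replicate 2 or 3 or Biotin- replicate 1 or 3, and that of Ngfr without Biotin+ replicate 1 or 2 or Biotin- replicate 1 or 3. Of 3 tested neutrophil, 2 B cell, 3 CD4 T cell, 1 mesothelial, 1 adipocyte and 1 skeletal muscle markers, 0 passed in edgeR or limma-voom, 1 CD4 T cell and 1 mesothelial marker were lower in DESeq2 and at an unadjusted edgeR p under 0.05, and with the block 1 CD4 T cell and 1 mesothelial marker were lower. Of the 15 CD8 identity genes 4 were higher with the group alone and 12 with the block, 0 were lower, and the median log2 fold change was 0.67.

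**Figure D5:**
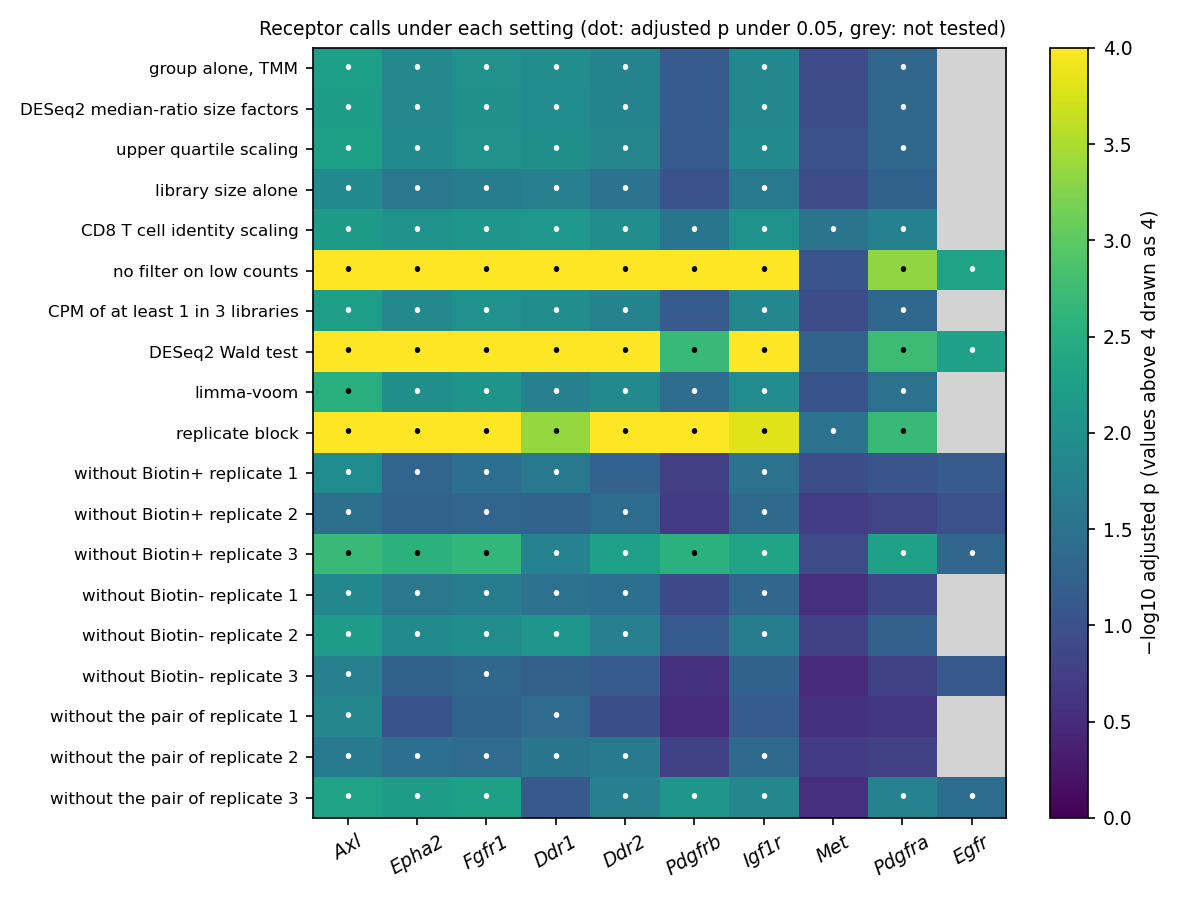
Calls of each receptor (across) under each fit (down the page), coloured by −log10 of the adjusted p, with a dot where the adjusted p was under 0.05 and grey where the gene was not tested. Axl has a dot in every fit, Met in 2, and the fits without Biotin- replicate 3 and without the pair of replicate 1 have 2 dots each.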

How the data were processed

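The deposited file gives unnormalized read counts for 40879 gene symbols in 6 libraries. Per the submitters' processing notes, the tools and build included Trim Galore 0.6.7, STAR 2.7.10a, Picard 1.14, featureCounts 2.0.1 and GRCm39, with no role stated. Annotation, strand setting and handling of multiply mapped reads were not given in the sources used here. Samples were grouped by title. The 10 receptors and all gene lists were chosen with earlier results of these data known. No label ties a replicate to an animal of its own, so the p-values cover the spread among these libraries, which may be technical. No replicate pair was a repeat within counting noise (chi-square over its degrees of freedom was 39.2 to 107).

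Group was tested alone, over 13360 genes that passed filterByExpr, by the quasi-likelihood F test of edgeR 4.0.16 in R 4.3.3, with TMM scaling, robust dispersion and Benjamini-Hochberg adjustment at 0.05. SE is the log2 fold change over the root of F. Deviations of same-numbered samples from their group means correlated at 0.424, 0.272 and 0.430 across genes, so the block that pairs them is given as an alternative wherever it changes a call; all other p-values come from the group alone. Alternatives were other scalings, filters, DESeq2 1.42.0, limma-voom (limma 3.58.1), the block, and leaving out libraries or pairs. Of the fits, only that of edgeR with the group alone was tried on simulated data, which had no replicate effect and less spread between libraries than these data. Named genes are the receptors, up to 4 genes per list by smallest p and the 5 nearest in profile. Exon lengths come from GENCODE M21 on GRCm38, another build than the authors', and were used for lengths and overlaps only. Counting intervals and floors cover counting error only, since the labels mention no molecular identifiers.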

Additional observations from a re-analysis of the deposited data

How the results depend on the processing

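The number of genes past the threshold was 1103 (205 higher and 898 lower in Biotin+). It was 2347 with the replicate number as a block (748 higher, 1599 lower), 3310 with CD8 identity scaling (25 higher, 3285 lower), 1891 without a filter (396 higher, 1495 lower) and 1823 with DESeq2 (396 higher, 1427 lower), and library size alone gave 84 higher. Without the pair of replicate 1, 2 or 3 it was 452, 491 or 627 (67, 46 or 39 higher; 385, 445 or 588 lower), and without single libraries 262 to 1213 (23 to 200 higher, 239 to 1044 lower). Of the 9 tested receptors, 7 passed (6.72% of all genes lower), and 2 without the pair of replicate 1 (2.88%). Without single libraries, 2 (without Biotin- replicate 3, 1.75%) to 8 (without Biotin+ replicate 3, 7.58%) passed. Egfr is not counted here, since its Biotin+ counts were 0. The block added Pdgfrb and Met to the receptors called and removed none. The log2 ratio of the summed receptors, -2.05, was -2.25 with library size alone, -2.79 with CD8 identity scaling and -2.32 to -1.81 without single libraries. The log2 fold change of Pdgfb, 0.07 and short of the threshold, became -0.0087 with upper quartile scaling, -0.15 with library size alone, -0.67 with CD8 identity scaling and -0.13 without the pair of replicate 2, and spanned -0.06 to 0.20 when single libraries were left out. Over the fits that left out libraries or pairs, the log2 fold change of Csf1r spanned -1.23 to 0.0432 (positive without Biotin- replicate 1) and the log2 fold change of Cdh1 -0.44 to 1.91 (negative without Biotin+ replicate 1). Library size alone shifted the median over all genes by -0.20 (log2) and CD8 identity scaling by -0.72. Causes were not tested, beyond the fewer samples in the fits that leave libraries out. Among the 44 named genes outside the set, 655 of 792 alternative values kept direction and side of the threshold, 124 lost the call, 4 gained it and 9 changed sign. At this depth Egfr had at most 26 counts in a library, which limits its precision.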
